A study of Mus musculus with 20 samples.

Results

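The genes of the mitochondrial respiratory chain and ATP synthase were followed through 2 opposite conversions between mouse extraembryonic endoderm (XEN) cells and pluripotent cells. Members were taken by name: every gene column that begins with Nduf, Uqcr, Atp5 or Sdh, or with Cox and a digit, together with the protein-coding columns that begin with mt-. This gave 119 of 22936 genes, of which 106 were nuclear and 13 mitochondrial. Of the nuclear members, 36 belonged to complex I, 4 to complex II, 8 to complex III, 18 to complex IV and 15 to complex V, 2 were the pair Ndufa4 and Ndufa4l2, and 23 were assembly factors or other genes that share a prefix. No measured value entered the naming rule, although it was set with earlier results of these data known. All but 1 of the 119 had enough UMIs to be tested. The exception was Cox8b, a cytochrome oxidase isoform of muscle, which had 0 to 3 UMIs in any library.

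The respiratory chain passes electrons from NADH (complex I) or succinate (complex II) through complex III to oxygen at complex IV, and complex V uses the proton gradient that results to make ATP. Most of its subunits are encoded in the nucleus, while mitochondrial DNA encodes core subunits of complexes I, III, IV and V and none of complex II, so both genomes have to be expressed for a full chain. Several small subunits exist as isoforms from separate genes, some of which are known from particular tissues or from hypoxia. Naive pluripotent cells are known to use both glycolysis and respiration, and primed cells rely more on glycolysis.

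The XEN-to-iPS conversion started from 3F-4 XEN, a single line homozygous for a cassette at Col1A1 (Col1A1TetO-OKSmCh/TetO-OKSmCh) from which doxycycline switches on Oct4, Klf4, Sox2 and mCherry, for the transactivator that doxycycline needs (R26M2rtTA/M2rtTA) and for a reporter of Oct4 (Oct4-GFPTg/Tg). Its conditions were XEN (no doxycycline), day 7, day 14, day 28 and XEN-iPS. By the paper's methods, cells to be reprogrammed were induced and sorted for mCherry before plating on feeders, unlike the uninduced XEN cells. The part of this selection in differences from XEN was not tested. The cells were grown on fibroblast feeders with serum, LIF, ascorbic acid and a GSK3β inhibitor, and XEN-iPS cells were sorted and then regrown on feeders in serum and LIF. The ES-to-iXEN conversion started from iGata4-Gata6-Venus ES cells in serum and LIF, which carry one copy each of a Gata4 cassette that doxycycline switches on (Col1A1TetO-Gata4/+), of the transactivator (R26M2rtTA/+) and of a Gata6 reporter (Gata6H2B-Venus/+). Its conditions were ES, 9h, 24h, 48h and iXEN, the last after doxycycline had been withdrawn. All conditions of a conversion share these alleles, so the starting cells carry the uninduced cassette too. Libraries of day 7, day 14, day 28 and 9h were mixtures of sorted subpopulations recombined in about equal parts, and their levels are averages over that mixture and not over the dish.

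Each condition had 2 libraries, described as technical duplicates, so that p-values measure the spread between such libraries and not between cultures. After cells with few genes and clusters with feeder markers were left out, 107720 cells remained, and the libraries held between 46193758 and 138204184 UMIs. The defining pluripotency and endoderm markers marked the ends of both conversions. Fibroblast markers summed to 78.9 CPM (UMI counts scaled to a common library size) in XEN-iPS replicate 2 and to 15.7 CPM or less in every other library. Markers of 2-cell-like cells summed to 58.7 CPM in XEN-iPS replicate 1, 3.29 CPM in replicate 2 and under 1 CPM elsewhere, and no cells were removed for them. Their part in the XEN-iPS levels was not tested. The duplicates of XEN-iPS differed more than those of any other condition (SD of the log2 ratio over all genes 1.14, against 0.287 to 0.943). Any pair of libraries shared between 0.259% and 1.62% of cell barcodes. Libraries came from 4 sequencing projects. XEN, day 28 and ES were of the same project, whereas for day 7, day 14, XEN-iPS, 9h, 24h, 48h and iXEN against their starting cells, for iXEN against XEN and for XEN-iPS against ES the project and the condition cannot be told apart. With 2 libraries a condition, a value that did not pass the test is not thereby shown to be level. Nor did a call always hold: of 144 calls of single named genes, 47 held under every alternative that was run. Among these 144, a call lost under 5 or more alternatives carries that number where it is described. Calls lost under fewer may carry none. Calls of other genes, named after their values were seen or read from other lists, were not followed one by one. For them a missing number does not mean that the call held.

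Promoters of 4 nuclear members, chosen after their values were seen, are shown because 3 of them (Uqcrc1 and Ndufa9, core and accessory subunits of complexes III and I, and Ndufa6 of complex I) rose together at day 7, while Cox6b2 was higher than in XEN in every other condition. Each run covers 250 bases before to 50 bases after the start of transcription in RefSeq (GRCm38.p6), read in the direction of the gene: Uqcrc1 at chr9:108936398-108936697 (+ strand), Ndufa9 at chr6:126849095-126849394 (- strand), Ndufa6 at chr15:82354242-82354541 (- strand) and Cox6b2 at chr7:4753045-4753344 (- strand). Capitals mark the motifs searched for on both strands: GCGCA followed by any base and GCGC (core of the NRF1 site), CCGGAAG (GABPA), AAGATGGCG (YY1) and TCAAGGTCA (estrogen-related receptors), each a known regulator of nuclear respiratory genes. Ndufv1 and Atp5b also rose at day 7, and their windows held none of these motifs. Atp5c1, Sdha and Sdhb rose as well, and each had such a motif. Whether these motifs go with the rise at day 7 was not tested.
Uqcrc1: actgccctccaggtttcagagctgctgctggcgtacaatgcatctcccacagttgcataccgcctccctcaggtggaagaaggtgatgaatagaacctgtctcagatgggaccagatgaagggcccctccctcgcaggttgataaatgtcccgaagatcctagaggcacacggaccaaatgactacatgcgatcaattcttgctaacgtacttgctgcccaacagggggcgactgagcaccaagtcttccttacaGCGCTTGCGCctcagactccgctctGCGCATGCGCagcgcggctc
Ndufa9: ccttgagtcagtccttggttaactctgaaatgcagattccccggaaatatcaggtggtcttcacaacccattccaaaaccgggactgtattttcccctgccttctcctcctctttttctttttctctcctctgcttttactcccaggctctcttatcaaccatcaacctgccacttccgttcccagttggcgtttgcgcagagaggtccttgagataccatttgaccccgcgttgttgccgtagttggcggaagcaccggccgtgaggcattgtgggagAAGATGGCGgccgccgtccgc
Ndufa6: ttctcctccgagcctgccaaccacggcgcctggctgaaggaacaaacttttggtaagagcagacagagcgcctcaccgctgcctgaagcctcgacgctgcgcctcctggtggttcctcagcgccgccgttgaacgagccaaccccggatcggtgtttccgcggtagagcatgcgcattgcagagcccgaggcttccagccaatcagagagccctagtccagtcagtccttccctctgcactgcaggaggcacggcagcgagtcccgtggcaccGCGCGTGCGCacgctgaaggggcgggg
Cox6b2: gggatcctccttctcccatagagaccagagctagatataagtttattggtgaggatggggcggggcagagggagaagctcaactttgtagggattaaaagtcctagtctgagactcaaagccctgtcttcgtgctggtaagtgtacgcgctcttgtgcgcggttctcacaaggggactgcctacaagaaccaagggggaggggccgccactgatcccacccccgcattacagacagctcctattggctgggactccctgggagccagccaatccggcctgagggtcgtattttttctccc

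RefSeq windows were matched for 88 of the 106 nuclear members. The NRF1 core occurred in 21 of them (23.9%) and in 5.19% of all 27025 genes with a window. CCGGAAG occurred in 26 (29.5%, against 9.93% of all genes), and AAGATGGCG in 10 (11.4%, against 1.64%). TCAAGGTCA was in 2 (2.27%, against 0.466%). The 5-base motif ACGTG, the core that hypoxia-inducible factors bind, was about as frequent in the members (25%) as in all genes (21.8%). No searched motif was in the window of Cox6b2, which says only that these letters are not there.

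The mitochondrial members are shown where 2 coding sequences share bases, since a read from the shared stretch alone cannot be given to either gene, or for genes on opposite strands only where counting used the strand. mt-Atp8 and mt-Atp6 share 43 bases (chrM:7927-7969), mt-Nd4l and mt-Nd4 share 7 (chrM:10167-10173), and mt-Nd5 and mt-Nd6, which lie on opposite strands, share 14 (chrM:13552-13565). mt-Atp6 and mt-Co3 meet at the base chrM:8607, which both include, and this junction is not shown. The lines give the + strand of GRCm38 with the shared bases in capitals.
mt-Atp8 and mt-Atp6: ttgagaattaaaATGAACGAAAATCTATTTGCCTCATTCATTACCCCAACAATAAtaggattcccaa
mt-Nd4l and mt-Nd4: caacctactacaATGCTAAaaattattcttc
mt-Nd5 and mt-Nd6: tcttatactcaaTTAATCTCGAGTAA
The mRNAs of mt-Atp8 and mt-Atp6, and of mt-Nd4l and mt-Nd4, are known to be single transcripts with a pair of reading frames. The low UMI counts of mt-Atp8 and mt-Nd4l may thus depend on how reads were placed, which was not tested. Values of the 6 genes in the pairs shown are uncertain. Whether counting used the strand is not given in the sources used here. Nuclear copies of mitochondrial genes could share reads with them and were not analysed here.

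Summed over the 13 mitochondrial mRNAs, day 28 had the highest level of the 10 conditions (3.46% ± 0.0828 of UMIs, SD, n = 2). Its libraries held 3.52% and 3.40%. The next values were 2.22% and 2.82% at day 14, 2.17% and 2.56% at 48h, and 1.90% and 2.71% in iXEN, so these conditions overlapped each other. XEN held 2.00% and 1.48%, day 7 held 1.84% and 1.81%, XEN-iPS 2.19% and 1.27%, and ES 2.16% and 1.95%. The remaining libraries held 1.71% and 1.73% (9h) and 2.12% and 2.15% (24h). Every day 28 library was thus above all other libraries, while the order of the other conditions was mostly within the spread of their duplicates. Cells with over 20% mitochondrial molecules had been removed by the authors, which caps the level of single cells.

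The nuclear structural subunits moved differently. Their sum was 4.05% and 5.03% of UMIs in XEN, 4.90% and 4.37% at day 7, 4.78% and 3.87% at day 14, and 4.35% and 4.22% at day 28. It was 3.86% and 3.73% in XEN-iPS, 3.42% and 3.38% in ES, 3.35% and 3.39% at 9h, 2.91% and 3.23% at 24h, and 2.76% and 2.93% at 48h, while iXEN held 3.83% and 3.05%. Every library from XEN to day 28 was thus above every library of the ES-to-iXEN conversion, by the least between day 14 replicate 2 (3.87%) and iXEN replicate 1 (3.83%). By percent of UMIs the lowest condition was 48h, and its libraries overlapped those of 24h. Percents were not scaled by the factors behind CPM, which were 1.31 and 1.12 in iXEN and 0.931 and 0.951 at 48h.

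**Figure D1:**
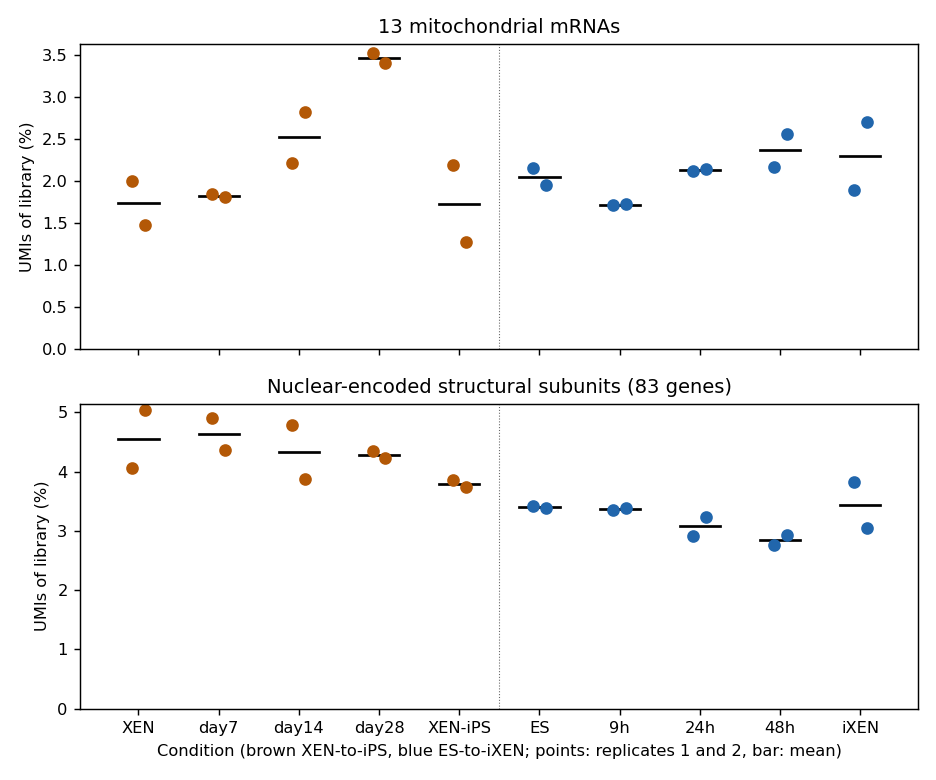
Percent of UMIs in the 13 mitochondrial mRNAs and in the nuclear structural subunits for each of the 10 conditions; points are the 2 libraries of a condition and horizontal bars their mean. The day 28 libraries stand highest for mitochondrial mRNA at 3.52% and 3.40%, whereas for nuclear subunits the conditions from XEN to day 28 stand above those of the ES-to-iXEN conversion.

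The ratio of nuclear to mitochondrial UMIs was 2.03 and 3.41 in XEN, 2.66 and 2.42 at day 7, 2.15 and 1.37 at day 14, and 1.24 in both libraries of day 28. It stood at 1.76 and 2.93 in XEN-iPS and at 1.58 and 1.73 in ES. On the way to iXEN it was 1.96 and 1.97 at 9h, 1.38 and 1.51 at 24h, and 1.27 and 1.14 at 48h, while iXEN had 2.02 and 1.13. The lowest mean ratios were those of 48h and day 28, and the duplicates lay far apart in XEN, XEN-iPS, iXEN and day 14 (SD 0.554 to 0.975, against 0.17 or less in the other conditions).

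By complex, the mitochondrial subunits of complex IV carried most of the day 28 level, at 1.97% ± 0.0471 of UMIs (SD, n = 2) against 0.922% ± 0.162 in XEN. They were the largest part of the mitochondrial sum in every other condition too. The mitochondrial subunits of complex V stood at 0.624% ± 0.0745 against 0.294% ± 0.0796, those of complex I at 0.680% ± 0.0491 against 0.403% ± 0.106, and mt-Cytb of complex III at 0.191% ± 0.00622 against 0.119% ± 0.0207. The nuclear subunits of complex IV were at 1.57% ± 0.30 in XEN, 1.43% ± 0.00567 at day 28 and 1.14% ± 0.0209 in ES. Those of complex II, which has no mitochondrial subunit, were the least abundant, between 0.0246% ± 0.00235 in XEN-iPS and 0.0463% ± 0.00633 at day 7.

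UMIs from the 3' end count captured molecules, so no division by length was made. Capture through the poly(A) tail may differ between mRNAs, and the shares of the 6 genes in the overlapping pairs shown above are uncertain, so the order is that of captured UMIs. mt-Co1, the catalytic subunit of complex IV, held a median of 28.3% of mitochondrial UMIs over the 20 libraries (17.1% to 42.4%). mt-Atp6 followed with a median of 17.0%, mt-Co3 with 14.2% and mt-Nd1 with 13.6%. The lowest shares were those of mt-Atp8 (0.179%) and of mt-Nd6 (0.0801%), the only protein gene on the opposite strand of mitochondrial DNA. mt-Co1 was the most abundant of the 13 by this median, and its share varied widely between libraries.

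Between the starting cells, 10 members were higher in ES than in XEN and 15 lower (adjusted p under 0.05, edgeR quasi-likelihood test), of 118 tested. Over all 16774 genes tested, 30.0% were called higher and 25.5% lower, against 8.47% and 12.7% of the members. The lower calls depended on single libraries: 29.7% of the members and 24.0% of all genes were lower without XEN replicate 1, 4.24% and 20.7% without XEN replicate 2, and 5.93% and 20.4% without ES replicate 2. The median log2 fold change was -0.25 for the nuclear members and 0.24 for the mitochondrial ones, beside 0.12 for all genes. None of the 13 mitochondrial genes passed the test, with values between 0.03 and 1.23, all on the side of ES. At an unadjusted p under 0.05 the member counts were 13 and 24, and all genes were not counted at that limit in any comparison.

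The largest called decreases among abundant members were in accessory subunits. Ndufa1, an X-linked complex I subunit, stood at 356 and 507 CPM in XEN and at 161 and 146 CPM in ES (log2 fold change -1.49 ± 0.31, adjusted p = 0.000764, edgeR). Cox8a, the common isoform of the smallest complex IV subunit, stood at 3427 and 4503 CPM in XEN and 1619 and 1474 CPM in ES (-1.36 ± 0.23, adjusted p = 0.000168). Ndufa2 fell by 1.35 ± 0.26. In the other direction Cox6b2 rose by 2.68 ± 0.35, from 10.2 and 19.1 CPM to 111 and 76.9 CPM, and Ndufaf2, an assembly factor of complex I, and Ndufa7 rose by 0.93 ± 0.29 and 0.75 ± 0.19. For all of these genes the XEN and ES libraries did not overlap. Without XEN replicate 1, 6 members were higher and 35 lower, and with only the XEN and ES libraries in the fit 33 were lower. Without XEN replicate 2, whose nuclear members lay above those of replicate 1 (median log2 ratio of replicate 1 to replicate 2 -0.39), 5 were lower, and without ES replicate 2, 7. Both groups were of one sequencing project. With the project as a block 15 were higher and 23 lower (12.7% and 19.5%, where all genes gave 32.8% and 27.9%). With only the XEN and ES libraries in the fit, all genes gave 32.5% lower.

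At day 7 of induction, 34 members were higher than in XEN and 4 lower, where all genes gave 14.9% higher and 10.7% lower. The members called higher were 11 of 36 in complex I, 2 of 4 in complex II, 3 of 8 in complex III, 4 of 17 tested in complex IV, 6 of 15 in complex V, 6 of 23 assembly factors and 2 of 13 mitochondrial genes. The nuclear median was 0.26 and the mitochondrial one 0.45, with 0.00 for all genes. Whichever library of the comparison was left out, the share of higher members was above that of all genes and the share of lower ones under it. Without XEN replicate 1, or without day 7 replicate 2, 17 members were higher. The 4 lower became 1 without XEN replicate 2 or day 7 replicate 2, and 8 without day 7 replicate 1.

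Uqcrc2, a core subunit of complex III, stood at 47.1 and 36.0 CPM in XEN and at 150 and 216 CPM at day 7 (log2 fold change 2.13 ± 0.26, adjusted p = 8.38e-05, edgeR). Its partner Uqcrc1 stood at 121 and 114 CPM and then at 295 and 405 CPM (1.58 ± 0.27). Ndufv1, which carries the NADH site of complex I, stood at 69.6 and 46.7 CPM and then at 154 and 230 CPM (1.72 ± 0.35). For each of these 3 genes the lower day 7 library was above both XEN libraries. Ndufa9 (1.57 ± 0.31) and Ndufa6 (1.33 ± 0.20) of complex I rose as well, as did Atp5c1 (1.49 ± 0.20), Atp5b (1.37 ± 0.26) and Atp5a1 (0.95 ± 0.23), the γ, β and α subunits of the catalytic head of complex V. In complex II, Sdhb, the iron-sulfur subunit, stood at 94.6 and 85.2 CPM and then at 174 and 212 CPM (1.10 ± 0.32), and Sdha, the flavoprotein, rose by 0.68 ± 0.22, a call lost under 5 alternatives. Of the mitochondrial genes, mt-Nd5 (0.97 ± 0.24) and mt-Nd2 (0.84 ± 0.23) of complex I rose.

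Small subunits were among those that did not follow. Atp5j2 of complex V stood at 912 and 1540 CPM in XEN and at 824 and 555 CPM at day 7 (-0.83 ± 0.29, adjusted p = 0.0435, edgeR, a call lost under 5 alternatives), and Ndufa1 fell by 0.87 ± 0.30, to 298 and 173 CPM, a call lost under 7 alternatives. Cox20, an assembly factor of complex IV, stood at 45.7 and 70.3 CPM and then at 25.6 and 15.9 CPM (-1.49 ± 0.27). Cox7a1 fell by 1.37 ± 0.45. The groups did not overlap for any of these 4 genes.

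The fold changes at day 7 varied with the length of the transcript. Over the 76 structural subunits with at least 50 CPM in a condition, Spearman's rho between transcript length and log2 fold change was 0.51 across genes, which are not independent replicates. The 38 with a transcript of at most 737 bases had a median of -0.04 and the 38 longer ones a median of 0.63. At day 14 the medians were -0.17 and 0.44 (rho 0.47), at day 28 they were -0.10 and 0.22 (rho 0.36), and at 9h against ES they were -0.04 and 0.41 (rho 0.54). The duplicates of a condition also varied with length: the log2 ratio of replicate 1 to replicate 2 had a rho of -0.63 at day 7, -0.46 at day 14 and 0.47 at 9h. Its medians for shorter and longer transcripts were 0.36 and -0.19 at day 7, 0.59 and 0.28 at day 14, and -0.05 and -0.004 at 9h. The part of length in the changes was not tested.

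**Figure D2:**
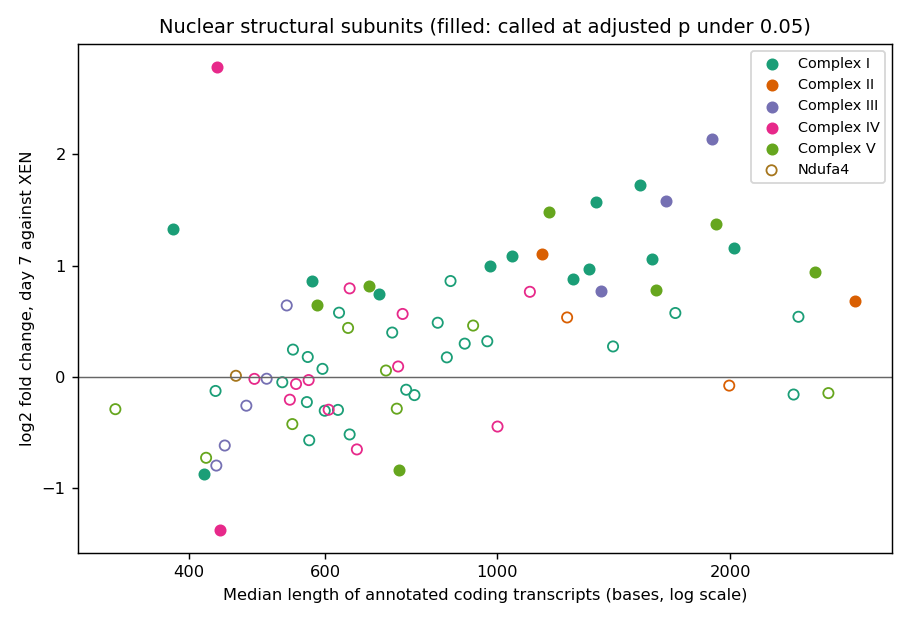
Log2 fold change at day 7 against XEN plotted against transcript length in bases (log axis) for the 76 structural subunits with at least 50 CPM; each point is a gene, coloured by complex and filled if called at an adjusted p under 0.05. Most points to the right of 737 bases lie above 0, with a median of 0.63, and those to the left scatter about a median of -0.04.

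Day 14 kept part of this pattern, with 22 members higher and 7 lower than in XEN (all genes 15.6% higher and 8.72% lower). Fewer members were thus higher than at day 7, and more were lower. The median was 0.03 for nuclear members, 0.62 for mitochondrial ones and 0.06 for all genes. Uqcrc2 stood at 145 and 152 CPM (1.84 ± 0.26, adjusted p = 0.000202, edgeR), Ndufv1 at 179 and 170 CPM (1.59 ± 0.35) and Ndufa6 at 462 and 390 CPM (1.36 ± 0.20), each library above those of XEN. Uqcr10, a small subunit of complex III, fell by 0.97 ± 0.30, from 1198 and 1717 CPM to 945 and 542 CPM, and Atp5j2 and Cox20 fell by 0.96 ± 0.29 and 1.43 ± 0.27. Leaving out any one of the 4 libraries brought the 22 (18.6%) to between 10 (without XEN replicate 2) and 13. The share of higher members was then under that of all genes without XEN replicate 2 (8.47% against 9.46%) and without day 14 replicate 1 (11.02% against 12.02%). The 7 lower (5.93%, where all genes gave 8.72%) became 1 without XEN replicate 2 or day 14 replicate 2, and 11 without day 14 replicate 1 (9.32% against 5.07%). Without XEN replicate 1 their share was also above that of all genes (8.47% against 5.99%).

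At day 28, of the 13 mitochondrial genes 10 were higher than in XEN and none lower, and all 13 estimates lay above 0, from 0.62 to 1.57 with a median of 0.90. mt-Nd4l had 81.1 and 59.6 CPM in XEN, against 222 and 195 CPM at day 28 (1.57 ± 0.27, adjusted p = 0.000378, edgeR). mt-Nd5, the distal proton-pumping subunit of complex I, stood at 79.1 and 67.6 CPM and then at 184 and 182 CPM (1.32 ± 0.25). mt-Co1 stood at 5219 and 4935 CPM and then at 12300 and 12420 CPM (1.28 ± 0.37). The day 28 libraries were above both XEN libraries for all 3 genes. mt-Atp8 (1.42 ± 0.41), mt-Atp6 (1.08 ± 0.22), mt-Nd3 (0.90 ± 0.29), mt-Nd4 (0.86 ± 0.25), mt-Co2 (0.83 ± 0.26), mt-Cytb (0.68 ± 0.24) and mt-Nd2 (0.62 ± 0.23) passed as well, the last 2 with calls lost under 6 and 8 alternatives. The 3 that did not were mt-Co3 (0.77 ± 0.42), mt-Nd1 (0.68 ± 0.38) and mt-Nd6 (1.16 ± 0.57). Over all genes 25.3% were higher with every library in the fit. Without XEN replicate 2, the share of the 13 that was called was near that of all genes. The 10 became 4 without XEN replicate 1, 3 without XEN replicate 2, and 6 without either day 28 library.

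Among the nuclear members, 17 were higher and 3 lower at day 28, with a median of 0.08, beside 0.17 over all genes. Together with the mitochondrial genes this made 27 higher and 3 lower, where all genes gave 25.3% and 13.1%. Uqcrc2 stood at 138 and 109 CPM (1.57 ± 0.26, adjusted p = 0.000259, edgeR), Ndufv1 at 169 and 117 CPM (1.29 ± 0.34) and Ndufa6 at 409 and 407 CPM (1.30 ± 0.20). All of these values were above XEN in each library. Cox7a2 fell by 0.85 ± 0.25, Cox20 by 0.91 ± 0.27 and Ndufs5 by 0.63 ± 0.23. With the mitochondrial mRNAs left out of the totals, 13 nuclear members were higher and 6 lower, where all genes gave 24.0% and 15.5%. Whichever library of the comparison was left out, the shares of higher and of lower members were under those of all genes. The 27 became 15 without XEN replicate 1, 14 without XEN replicate 2 and 15 without day 28 replicate 1, and the 3 became 11 without XEN replicate 1, none without XEN replicate 2 or day 28 replicate 2, and 1 without day 28 replicate 1. Day 28 and XEN were of one project, and with the project as a block 36 were higher and 7 lower. The share of higher members was under that of all genes without the block (22.9% against 25.3%) and above it with the block (30.5% against 28.7%).

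Cells of the day 28 libraries spread between XEN and ES. Each cell with at least 2000 UMIs was placed by the balance of 100 genes higher in ES and 100 higher in XEN, so that 0 is XEN and 1 is ES. Cells with fewer UMIs (157 in replicate 1 and 85 in replicate 2) were not placed. Members were left out of the gene lists. Pou5f1, Sox2 and Gata4 were among these 200 genes and are also carried by the cassettes. Cells below 0.2 were called endoderm-side, those above 0.8 pluripotent-side and the rest intermediate. Endoderm-side cells held 3.46% mitochondrial UMIs in replicate 1 (2342 cells) and 3.59% in replicate 2 (920 cells). Intermediate cells held 4.02% (1978 cells) and 3.66% (567 cells), and pluripotent-side cells 2.93% (861 cells) and 2.95% (411 cells).

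In both day 28 libraries the intermediate cells were highest and the pluripotent-side cells lowest, although the step from endoderm-side to intermediate in replicate 2 was small. Pluripotent-side cells at day 28 still held more mitochondrial mRNA than any ES or XEN-iPS library. The nuclear structural subunits were at 4.55%, 4.56% and 3.73% of UMIs from endoderm-side to pluripotent-side in replicate 1, and at 4.27%, 4.34% and 4.06% in replicate 2. Depth differed between the classes, with median UMIs of 16670, 18000 and 31240 per cell in replicate 1 and 27120, 29800 and 52340 in replicate 2, and its part was not tested. Within 0.05 of the lower limit lay 746 and 255 cells, and within 0.05 of the upper limit 104 and 55. In iXEN replicate 1, the only other library with at least 100 cells in each class, the pluripotent side was lowest too, at 1.23% (262 cells), with 1.57% (894 cells) between and 2.02% (4171 cells) on the endoderm side. Position is only a balance of gene lists. Pluripotency markers summed to 171.1 CPM in that library and to 206.1 CPM in iXEN replicate 2, which had 5 pluripotent-side cells. The class is therefore not shown to be pluripotent in iXEN.

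**Figure D3:**
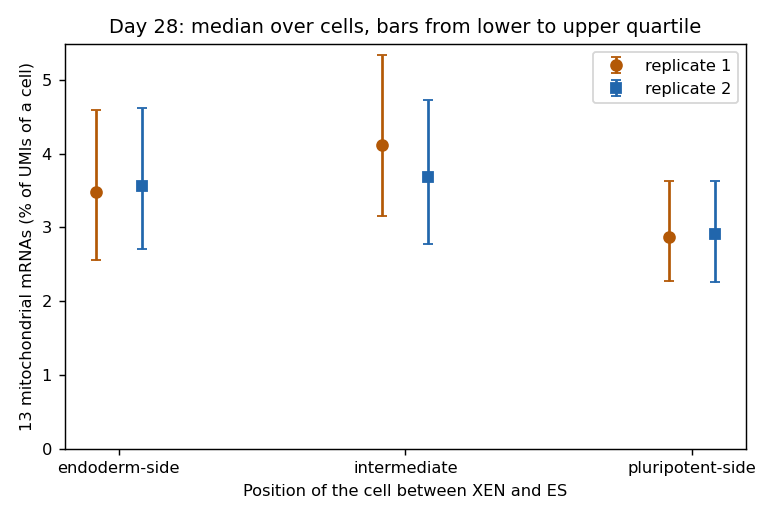
Percent of a cell's UMIs in the 13 mitochondrial mRNAs for endoderm-side, intermediate and pluripotent-side cells of the 2 day 28 libraries; points are medians over cells and bars run from the lower to the upper quartile. Medians are highest in intermediate cells (4.12% and 3.69%) and lowest in pluripotent-side cells (2.88% and 2.91%), and the quartile ranges overlap.

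In XEN-iPS, at the end of the conversion, 11 members were higher than in XEN and 20 lower, where all genes gave 31.5% and 24.7%. The medians were -0.24 for nuclear members, -0.10 for mitochondrial members and 0.12 for all genes. Cox6b2 stood at 193 and 103 CPM in XEN-iPS (3.33 ± 0.36, adjusted p = 2.01e-06, edgeR) and Ndufv3 at 359 and 630 CPM against 221 and 320 CPM in XEN (0.87 ± 0.26). Ndufa6, at 224 and 273 CPM against 168 and 163 CPM, was still higher (0.59 ± 0.20, a call lost under 6 alternatives). Cox5b fell by 1.12 ± 0.35, from 928 and 1749 CPM to 385 and 848 CPM. Ndufb2 fell by 1.03 ± 0.37 and Ndufa2 by 0.97 ± 0.26. Uqcrc2 was back at 56.1 and 36.1 CPM, close to its XEN values.

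These counts rested on single libraries and on the libraries in the fit. With only those of XEN-iPS and XEN, 6 members were higher and 2 lower, where all genes gave 23.6% and 17.0%. The counts also rested on the removal of feeder clusters, which took 3732 cells of XEN-iPS replicate 2 and left 3093 (708 and 3551 in replicate 1). With those clusters kept, 7 members were higher and 32 lower, where all genes gave 29.0% and 21.0%. Without XEN replicate 2, 1 member was lower (0.847%, where all genes gave 20.2%), without XEN replicate 1, 35 (29.7% against 23.2%), and without XEN-iPS replicate 1, 31 (26.3% against 24.4%), so the relation to all genes (16.9% against 24.7% with every library) turned with 1 library. The 11 higher became 5 without XEN replicate 1 and 7 without XEN-iPS replicate 2. Under another scaling (RLE size factors) 14 were higher and 14 lower (11.9% each), where all genes gave 33.5% and 22.7%. mt-Nd6, at 9.94 and 44.5 CPM in the XEN-iPS duplicates, was called higher (1.53 ± 0.58, adjusted p = 0.0333, edgeR), a call lost under 5 alternatives, and without XEN-iPS replicate 2 its estimate was -0.05.

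In the other conversion, 4 members were higher and 1 lower at 9h than in ES, where all genes gave 3.58% higher and 3.79% lower. This count depended on the libraries in the fit: with only those of ES and 9h, whose duplicates differed least, 45 members were higher and 10 lower, where all genes gave 23.4% and 23.6%. The nuclear median was 0.18, the mitochondrial one -0.10 and that of all genes -0.01. Cox7a1 stood at 23.5 and 17.4 CPM in ES and at 60.4 and 62.7 CPM at 9h (1.59 ± 0.44, adjusted p = 0.0410, edgeR). Atp5b rose by 0.96 ± 0.26, from 523 and 635 CPM to 1130 and 1125 CPM, and Cox18, which inserts a complex IV subunit in the membrane, by 1.14 ± 0.27. Ndufa10 of complex I, named after its value was seen, rose by 0.71 ± 0.21, and Cox7b2 fell by 1.62 ± 0.45. Leaving out any one of the 4 libraries left none of these 5 calls (those of Cox7a1, Atp5b and Cox7b2 were lost under 5 alternatives each), and 16 members were higher and 3 lower at an unadjusted p under 0.05 with all libraries.

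At 24h, 3 members were higher than in ES and none lower, where all genes gave 7.92% and 5.57%. At an unadjusted p under 0.05 there were 5 and 11, and DESeq2 called 3 and 4, where all genes gave 10.4% and 7.43%. The 3 were Cox7a1 (36.0 and 87.1 CPM, 1.59 ± 0.44, adjusted p = 0.0279, edgeR), Cox4i2 (2.04 ± 0.50) and Cox8c (2.39 ± 0.68, a call lost under 5 alternatives), all minor isoforms of complex IV. The 3 became none without ES replicate 1, ES replicate 2 or 24h replicate 2, and without 24h replicate 1 there were 2 lower. The medians were -0.23 for nuclear members, 0.17 for mitochondrial members and -0.01 for all genes.

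At 48h 2 members were higher and 16 lower than in ES (1.69% and 13.6%), where all genes gave 20.3% and 18.9%, so both shares were under those of all genes. Of the 16, 8 were assembly factors (of 23), among them Ndufaf4 (60.9 and 46.2 CPM in ES, 21.9 and 21.5 CPM at 48h, -1.30 ± 0.29, adjusted p = 0.00277, edgeR). Uqcrq of complex III fell by 1.22 ± 0.28, from 984 and 820 CPM to 372 and 404 CPM, and Ndufa12 of complex I by 1.09 ± 0.27, from 242 and 233 CPM to 93.0 and 129 CPM. The groups did not overlap for these 3. mt-Nd3 (0.75 ± 0.28, a call lost under 6 alternatives) and Ndufa6 (0.70 ± 0.20) rose. The medians were -0.26 for nuclear members, 0.33 for mitochondrial members and 0.00 for all genes. The 16 became 6 without ES replicate 1 or 48h replicate 1 (5.08%, where all genes gave 12.8% and 15.1%), and the 2 became none or 1 without any one library.

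Between 24h and 48h, 3 members fell and none rose, where all genes gave 6.24% higher and 4.09% lower. Neither DESeq2 nor an unadjusted p under 0.05 gave a member that rose. The 3 were Ndufa4l2 (-5.29 ± 0.93, adjusted p = 0.00251, edgeR), Cox7a1 (-3.04 ± 0.47, adjusted p = 0.00111) and Cox4i2 (-1.87 ± 0.50, adjusted p = 0.0271). The 48h libraries held 9.50 and 5.53 CPM of Cox7a1, below its 24h libraries. With the sequencing project as a block 4 fell (3.39%, where all genes gave 6.79%). Without 48h replicate 2, 1 did (0.847%, where all genes gave 0.525%).

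In iXEN 2 members were higher and 27 lower than in ES. All genes gave 28.2% and 26.0%, and the members 1.69% and 22.9%, so the share of lower calls was near that of all genes. The lower members were 8 of 23 assembly factors, 5 of 36 in complex I, 1 of 4 in complex II, 1 of 8 in complex III, 4 of 17 tested in complex IV, 5 of 15 in complex V, Ndufa4l2 and 2 of 13 mitochondrial genes. Atp5g1, one of the genes for the c subunit of complex V, stood at 1736 and 1513 CPM in ES and at 710 and 472 CPM in iXEN (-1.46 ± 0.33, adjusted p = 0.00151, edgeR). Ndufaf2 stood at 66.8 and 67.4 CPM and then at 22.2 and 27.1 CPM (-1.44 ± 0.30), and Ndufv1 at 62.8 and 63.2 CPM and then at 32.9 and 26.1 CPM (-1.09 ± 0.34). Each iXEN library was below both ES libraries for these 3 genes.

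Ndufa3 of complex I (0.84 ± 0.32, a call lost under 5 alternatives) was higher in iXEN than in ES, as was Cox20 (0.74 ± 0.27). The mitochondrial genes called lower were mt-Co2 (-0.71 ± 0.26) and mt-Atp6 (-0.63 ± 0.22). The medians were -0.38 for nuclear members, -0.43 for mitochondrial members and 0.02 for all genes. As percents of UMIs the means of iXEN were not below those of ES. They were 2.303% against 2.055% for the mitochondrial sum and 3.439% against 3.40% for the nuclear subunits, with overlapping libraries. Fold changes used scaled totals, with factors of 1.31 and 1.12 in iXEN and 0.97 and 0.98 in ES. With DESeq2, 33 were lower, 28.0% of the members against 27.1% of all genes. Whichever library of the comparison was left out, the shares of higher and of lower members were under those of all genes. The 27 became 17 without ES replicate 1 or iXEN replicate 1, and the 2 became none without ES replicate 2 or iXEN replicate 1 and 1 without ES replicate 1.

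**Figure D4:**
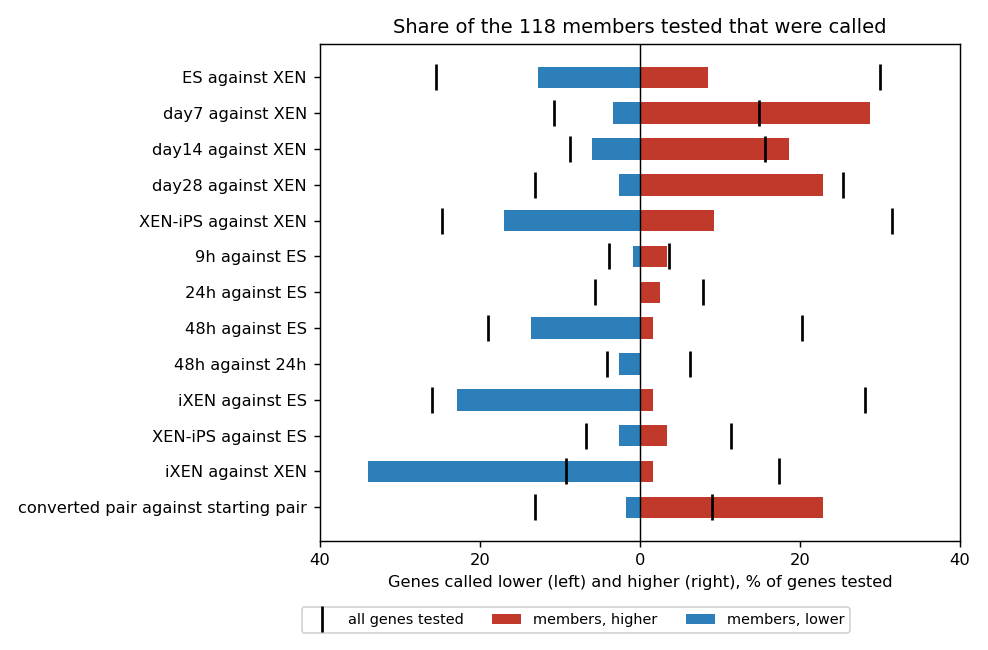
Percent of the 118 tested members called higher (red bars, to the right) and lower (blue bars, to the left) in each of the 13 comparisons, with black ticks for the percent of all 16774 genes tested. The bar passes the tick for the members higher at day 7 against XEN (34), narrowly and not without XEN replicate 2 or day 14 replicate 1 for those higher at day 14 (22), lower in iXEN against XEN (40) and higher in the converted pair against the starting pair (27).

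The end states were set against the cells they were meant to resemble. Between XEN-iPS and ES, 4 members were higher in XEN-iPS and 3 lower, where all genes gave 11.4% and 6.72%. Cox8a was higher (0.70 ± 0.23, adjusted p = 0.0466, edgeR), at 2609 and 2428 CPM against 1619 and 1474 CPM, a call lost under 7 alternatives, leaving out any one of the 4 libraries among them, and so was Ndufv3 (1.03 ± 0.26). The other 2 were Cox8c (3.88 ± 0.70) and Cox15 (1.03 ± 0.27), which makes the heme of complex IV and was named after its value was seen. Sdha fell by 1.00 ± 0.23, from 49.5 and 59.3 CPM in ES to 29.9 and 24.4 CPM in XEN-iPS, Sdhd by 0.80 ± 0.26 and Ndufs6 by 0.70 ± 0.23 (both calls lost under 6 alternatives), so 2 of the 4 subunits of complex II were lower. The nuclear, mitochondrial and overall medians were 0.04, -0.42 and 0.04. Without XEN-iPS replicate 1, 13 were lower (11.02%, where all genes gave 8.27%), above the share of all genes and not under it as with every library. The 3 became 1 without ES replicate 1 and none without ES replicate 2, and the 4 became 1 without either. RLE size factors gave 5 higher and 1 lower, where all genes gave 12.9% and 5.41%.

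Between iXEN and XEN, which were of different sequencing projects, 2 members were higher in iXEN and 40 lower, where all genes gave 17.4% higher and 9.23% lower. The lower ones were 15 of 36 in complex I, 9 of 15 in complex V, 7 of 23 assembly factors, 4 of 17 tested in complex IV, 3 of 8 in complex III, 1 of 4 in complex II and Ndufa4. The nuclear median was -0.57, the mitochondrial one -0.03 and that of all genes 0.14. Ndufa5 of complex I stood at 275 and 362 CPM in XEN and 123 and 86.4 CPM in iXEN (-1.60 ± 0.36, adjusted p = 0.00451, edgeR). Atp5g1 stood at 1576 ± 276 CPM in XEN (SD, n = 2) and in the iXEN libraries at 710 and 472 CPM (-1.42 ± 0.32), and Ndufb2 at 141 and 217 CPM and then at 79.4 and 54.6 CPM (-1.42 ± 0.37). The groups did not overlap for these 3. Cox6b2 (2.91 ± 0.35) and Ndufa4l2 (3.09 ± 1.06, a call lost under 6 alternatives) were the 2 higher. The 40 (33.9%) became 24 with only the iXEN and XEN libraries in the fit, 11 without XEN replicate 2 (9.32%, where all genes gave 4.90%), 25 without iXEN replicate 1 (21.2% against 7.30%) and 13 without iXEN replicate 2 (11.02% against 5.63%), each above the share of all genes, and the 2 became 1 without either XEN library or iXEN replicate 1.

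The difference between pluripotent and endoderm cells was then compared between the converted pair (XEN-iPS minus iXEN) and the starting pair (ES minus XEN). XEN and XEN-iPS were of one cell line, and ES and iXEN of the other. A difference between the pairs thus cannot be told apart from one between the lines or their culture. The signed difference was more positive in the converted pair for 27 members and more negative for 2, where all genes gave 9.04% and 13.1%. The medians of the difference were 0.58 for nuclear members, -0.49 for mitochondrial ones and -0.09 for all genes. For Cox8a the converted cells stood at 2609 and 2428 CPM (XEN-iPS) and 1866 and 1616 CPM (iXEN), and the starting cells at 1619 and 1474 CPM (ES) and 3427 and 4503 CPM (XEN), a difference of 1.89 ± 0.33 (adjusted p = 0.00112, edgeR). Ndufa1 (1.93 ± 0.43) and Ndufa5 (1.84 ± 0.50) differed in the same way. Cox6b2 differed by -2.26 ± 0.47 and Sdha by -1.11 ± 0.32. For Cox8a and Ndufa1, the mean of XEN-iPS lay between those of ES and XEN, and so did that of iXEN. Whichever library was left out, the share of members more positive was above that of all genes and the share more negative under it. The 27 became 15 with only these 4 conditions in the fit, 10 without XEN replicate 2 or ES replicate 2, 14 without iXEN replicate 2 and 17 without ES replicate 1, and the 2 became 1 without XEN replicate 2 or ES replicate 2 and 5 without XEN-iPS replicate 1 or iXEN replicate 1.

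The isoforms of complex IV and the Ndufa4 pair held the largest fold changes. Cox6b2, known as the testis form of Cox6b, was at 10.2 and 19.1 CPM in the XEN libraries, then at 110 and 91.3 CPM at day 7, 59.5 and 65.4 CPM at day 14, 95.1 and 89.1 CPM at day 28, and 193 and 103 CPM in XEN-iPS. On the other path it stood at 111 and 76.9 CPM in ES, 53.2 and 55.9 CPM at 9h, 96.9 and 120 CPM at 24h, 146 and 97.0 CPM at 48h, and 94.1 and 126 CPM in iXEN. XEN was thus the low condition, below every other library, and against XEN the rise was 2.78 ± 0.35 at day 7 (adjusted p = 9.92e-05, edgeR), 2.09 ± 0.34 at day 14 and 2.65 ± 0.35 at day 28. The common form Cox6b1 stood between 573 and 1334 CPM, many times the level of Cox6b2, and passed the test only in XEN-iPS against XEN (-0.75 ± 0.25) among the 13 comparisons.

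Ndufa4l2, a paralog of Ndufa4 that is induced by hypoxia, stood at 0.0696 and 0.0711 CPM in XEN (8 UMIs in each library), 0.374 and 0.519 CPM at day 7, 0.159 and 0.167 CPM at day 14, 4.89 and 0.614 CPM at day 28, and 11.9 and 12.5 CPM in XEN-iPS. It stood at 9.51 and 14.9 CPM in ES, 16.5 and 16.6 CPM at 9h, 12.3 and 50.7 CPM at 24h, 1.13 and 0.505 CPM at 48h, and 1.06 and 0.156 CPM in iXEN. It was high in the pluripotent conditions and up to 24h, and low in XEN, at days 7 and 14, and from 48h on. ES was higher than XEN by 7.41 ± 1.09 (adjusted p = 3.80e-05, edgeR), and iXEN was lower than ES (-4.32 ± 0.90) and higher than XEN (3.09 ± 1.06). Ndufa4 itself ran from 512 to 2008 CPM, with 1244 and 2008 CPM in XEN, 806 and 864 CPM in ES and 692 and 691 CPM in iXEN, and was lower in ES (-0.96 ± 0.39) and iXEN (-1.23 ± 0.39) than in XEN, calls lost under 5 and 3 alternatives. Its XEN-iPS duplicates, at 1581 and 512 CPM, spanned most of that range.

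Cox4i2, the oxygen-sensitive isoform of Cox4, was at 0.331 and 0.258 CPM in the XEN libraries, then at 0.749 and 1.09 CPM at day 7, 1.96 and 2.41 CPM at day 14, 2.88 and 1.57 CPM at day 28, and 5.62 and 1.62 CPM in XEN-iPS. It stood at 4.35 and 2.73 CPM in ES, 9.38 and 8.48 CPM at 9h, 12.5 and 16.7 CPM at 24h, 5.46 and 2.53 CPM at 48h, and 0.540 and 0.499 CPM in iXEN. The highest libraries were thus those of 24h and the lowest those of XEN and iXEN. It was higher than in XEN at day 7 (1.65 ± 0.54, adjusted p = 0.0368, edgeR), day 14 (2.89 ± 0.55), day 28 (2.92 ± 0.55), in XEN-iPS (3.62 ± 0.56) and in ES (3.58 ± 0.56), and lower in iXEN than in ES (-2.76 ± 0.54). The day 7 call was lost without any one of its 4 libraries. Cox4i1, the common form, stood between 1235 and 4184 CPM and passed in none of the 13 comparisons.

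Cox7a1, the heart and muscle form of Cox7a, peaked early after induction of Gata4, as given above for 9h and 24h. In the other conversion it was at 21.1 and 24.5 CPM in the XEN libraries, then at 10.7 and 7.02 CPM at day 7, 10.6 and 8.41 CPM at day 14, 37.4 and 32.4 CPM at day 28, and 39.7 and 54.2 CPM in XEN-iPS, and in iXEN at 20.2 and 7.22 CPM. It was called lower than in XEN at days 7 and 14, at day 14 with a call lost under 7 alternatives, among them RLE size factors and leaving out any one of the 4 libraries. Its estimate at day 28 (0.62 ± 0.44) did not pass. Cox7a2, the common form, ran from 699 to 1840 CPM and was called lower than in XEN at day 14, at day 28 and in XEN-iPS, calls lost under 3, 3 and 5 alternatives. Cox7a2l, which takes part in supercomplexes of complexes III and IV, rose at day 14 (0.96 ± 0.31, adjusted p = 0.0330, edgeR), from 339 and 357 CPM to 594 and 758 CPM.

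Cox6a2, the muscle form of Cox6a, was found at day 7 with 441 and 319 UMIs, against 6 and 11 UMIs in XEN (6.47 ± 0.95, adjusted p = 0.000304, edgeR). In CPM it stood at 9.71 and 3.85 at day 7, 2.91 and 0.468 at day 14, 0.985 and 1.30 at day 28, and 0.238 and 0.500 in XEN-iPS. In the ES-to-iXEN conversion no library held more than 0.225 CPM. The common form Cox6a1, at 437 to 1029 CPM, was lower in ES than in XEN (-0.83 ± 0.25) and in XEN-iPS than in XEN (-0.81 ± 0.25). Cox8c, known from testis, had at most 1.65 CPM, reached in XEN-iPS, with 0 and 2 UMIs in XEN. Cox7b2 was highest at day 28 (12.6 ± 0.844 CPM, SD, n = 2), above XEN at 3.65 and 5.72 CPM (1.42 ± 0.43), and was lower in ES (-1.58 ± 0.43) and iXEN (-1.32 ± 0.43) than in XEN.

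**Figure D5:**
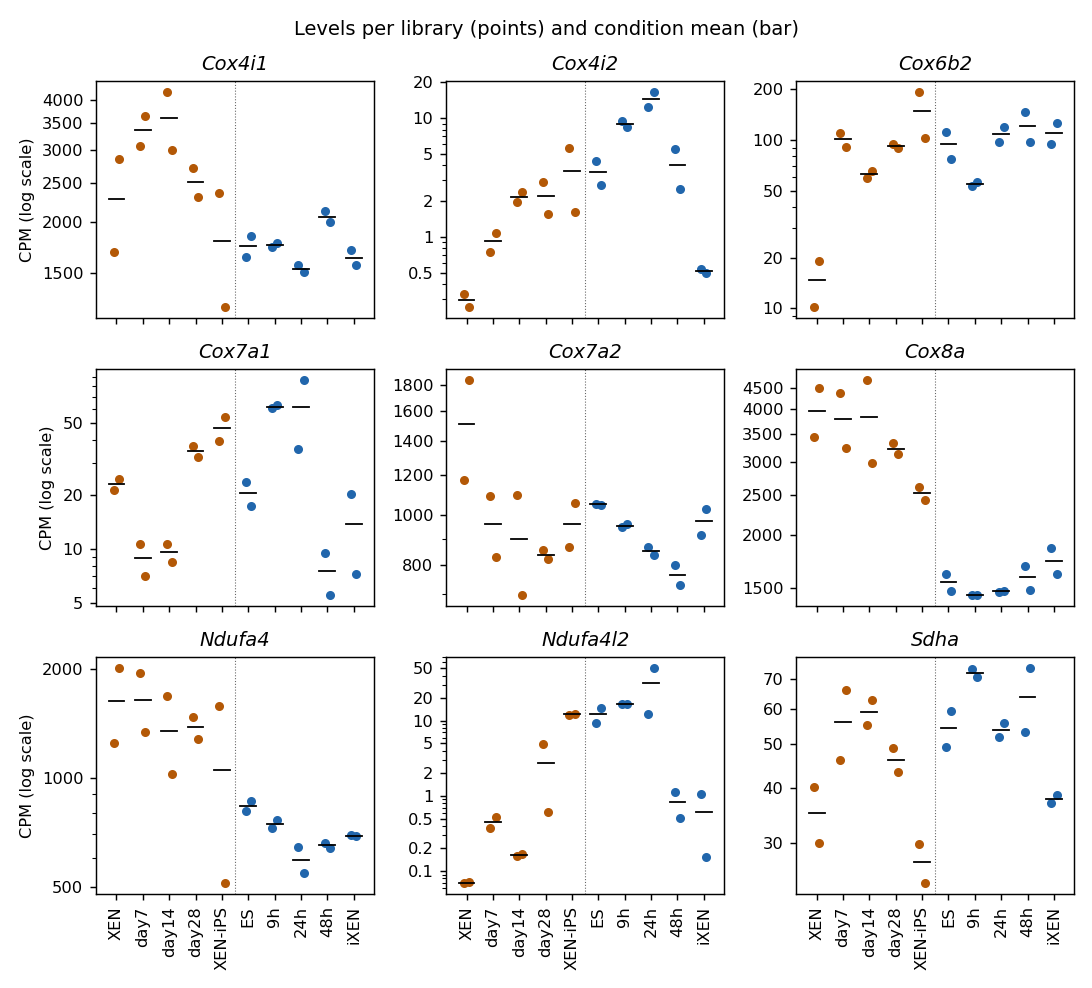
Level in CPM (log axis, which differs between panels) of 6 isoforms of complex IV subunits, Ndufa4, Ndufa4l2 and Sdha in the 10 conditions, with a point for each library and a bar for the mean. Cox6b2 is lowest in XEN (10.2 and 19.1 CPM), Ndufa4l2 is below 1 CPM in XEN and at days 7 and 14, and Cox7a1 and Cox4i2 have their highest means at 9h and 24h.

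The 3 genes for the c subunit of complex V, which encode the same mature protein, differed in pattern. Atp5g1 had means between 1274 and 1576 CPM from XEN to day 28, stood at 2501 and 1742 CPM in XEN-iPS, and declined from 1736 and 1513 CPM in ES to 710 and 472 CPM in iXEN. Atp5g2 rose at day 7 (0.65 ± 0.20, adjusted p = 0.0275, edgeR) and day 14 (0.67 ± 0.20), from 869 and 1004 CPM to 1415 and 1524 CPM at day 7, but the calls were lost under 7 and 6 alternatives, that of day 7 without any one of its 4 libraries. Atp5g3 was lower in ES (-0.78 ± 0.22), XEN-iPS (-0.60 ± 0.22) and iXEN (-0.98 ± 0.22) than in XEN. Of the X-linked members, Ndufb11 passed only between iXEN and XEN (-0.73 ± 0.21), and Cox7b was lower in iXEN than in ES (-0.87 ± 0.22) and XEN (-0.81 ± 0.22) and at day 14 than in XEN (-0.63 ± 0.22, a call lost under 5 alternatives).

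Complex II links the chain to the citric acid cycle, and its subunits did not move as one. Sdhc, a membrane anchor, stood at 100.5 and 105 CPM in XEN and passed only in XEN-iPS against XEN (-0.74 ± 0.24, adjusted p = 0.0169, edgeR). Sdhd, the other anchor, was lower in XEN-iPS than in XEN (-0.84 ± 0.26) and in iXEN than in ES (-0.82 ± 0.26). Sdha was higher in ES than in XEN (0.63 ± 0.22, a call lost under 5 alternatives). Its estimate in iXEN against ES was -0.53 ± 0.22 and did not pass.

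Genes that work with the chain were read from the same fit by lists chosen for what the genes do, with earlier results of these data known. Counts for these lists were not run under the alternatives. Of 17 genes of the citric acid cycle and pyruvate dehydrogenase, 11 (64.7%) were higher and 1 lower at day 7 than in XEN (median 0.77), beside 14.9% and 10.7% of all genes, among them Idh2 (1.89 ± 0.31) and Fh1 (1.78 ± 0.30). In iXEN 6 (35.3%) were lower than in ES and none higher (median -0.48), beside 26.0% and 28.2% of all genes. Of 22 genes of glycolysis and lactate, 10 (45.5%) were higher and 2 lower in ES than in XEN (median 0.63, all genes 30.0% and 25.5%), 13 (59.1%) and 2 in XEN-iPS than in XEN (median 0.76, all genes 31.5% and 24.7%), and 2 and 10 (45.5%) at 48h than in ES (median -0.60, all genes 20.3% and 18.9%). Pdk1, which restrains pyruvate dehydrogenase, stood at 4.85 and 5.08 CPM in XEN, 94.8 and 122 CPM in ES, and 11.1 and 19.2 CPM in iXEN.

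Of 19 genes for expression of mitochondrial DNA and for biogenesis, 10 (52.6%) were lower and 3 (15.8%) higher in iXEN than in ES (median -0.67), beside 26.0% and 28.2% of all genes. Tfam, which packages mitochondrial DNA and starts its transcription, stood at 86.5 and 78.4 CPM in ES and at 29.9 and 45.8 CPM in iXEN (-1.12 ± 0.23). At day 28 it stood at 40.4 and 37.6 CPM against 43.5 and 45.8 CPM in XEN, a difference that did not pass (-0.20 ± 0.22). Ppargc1a, a coactivator of biogenesis, was at 0 CPM in every XEN, XEN-iPS, ES and 9h library and reached 0.807 and 0.971 CPM at day 28. A count of 0 allows between 0.0221 and 0.0577 CPM in the libraries at 0 (3 UMIs, counting error only). Esrrb, which the list of 19 includes, is a pluripotency factor of the estrogen-related receptor family. It stood at 65.8 and 51.8 CPM in ES, 18.8 and 20.2 CPM at day 28 and 0.0159 and 0 CPM in iXEN, where a count of 0 allows 0.0468 CPM. Of 32 electron carriers and assembly genes outside the rule, 6 (18.8%) were higher and 2 (6.25%) lower at day 7, beside 14.9% and 10.7% of all genes. In iXEN 5 (15.6%) were higher and 9 (28.1%) lower than in ES, beside 28.2% and 26.0%. Slc25a4 and Slc25a5, which exchange ADP and ATP across the inner membrane, both rose at day 7, Slc25a4 from 870 and 1092 CPM to 2388 and 1947 CPM and Slc25a5 from a mean of 304 ± 57.3 CPM to 1038 ± 141 CPM (SD, n = 2).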

How the data were processed

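Single-cell RNA-seq libraries (10x Genomics 3' v2) of 10 conditions, 2 technical duplicates each, were used. The authors aligned the reads with SEQC to GRCm38 (mm10 in the submitters' processing notes), resolved reads that mapped to several places, removed cells with over 20% mitochondrial molecules or low complexity, and deposited whole UMI counts per gene and cell, not normalized. Other assays of the study were not used here.

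Cells with fewer than 500 genes (20991 of 134279) were left out, and 5568 cells in 17 of the 204 clusters, 16 fibroblast-like (over 200 CPM of summed feeder markers) and 1 differentiating-like in ES. No cell type annotation was used. The limits for removing clusters were set after the data were seen. Doublets were not called. UMIs were summed per library over kept cells, which is the depth given in the report, and the conditions were compared with edgeR 4.0.16 in R 4.3.3 (TMM, filterByExpr, quasi-likelihood test, Benjamini-Hochberg adjustment over 16774 genes) in one fit of all 20 libraries, with 10 residual degrees of freedom. Levels in CPM use the TMM-scaled totals, and errors of fold changes are standard errors. Sums over members are percents of all UMIs and have no test. Alternatives were DESeq2 1.42.0, RLE size factors, no filter on low counts, totals without mitochondrial mRNAs, blocks for replicate or sequencing project, cells with 1000 or more genes, no removal of clusters, libraries of the compared groups only, other position limits and each library left out. The fit was tested on simulated data. Genes were placed with GENCODE vM21, and transcript lengths are medians of its coding transcripts. Python 3.11.15 computed sums, positions and promoter motifs (scipy 1.17.1, pandas 2.3.3, numpy 2.4.6) and drew the figures (matplotlib 3.10.9). For positions each cell's UMIs were thinned to 2000, and cells with fewer were left out.

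Named were the 13 mitochondrial genes, the isoforms of Cox4, Cox6a, Cox6b, Cox7a, Cox7b, Cox8, Ndufa4 and Atp5g, the 4 Sdh subunits, the X-linked members, and in each comparison the 3 highest and 3 lowest called members with at least 50 CPM. Other members were named after their values were seen. Members, lists and comparisons were chosen with earlier results of these data known.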

Additional observations from a re-analysis of the deposited data

Results flagged for a closer look

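For 10 of the named members, the difference between pluripotent and endoderm cells was not the same in the converted pair (XEN-iPS minus iXEN) as in the starting pair (ES minus XEN), by the edgeR test of the difference itself. XEN and XEN-iPS share a cell line, as do ES and iXEN, so this cannot be told apart from a difference between the lines or their culture. Groups of 2 libraries are too small for a test of single libraries. On the log2 scale and with standard errors, the signed difference was more positive in the converted pair for Cox6a2 (5.69 ± 1.68, adjusted p = 0.0249), Cox7a1 (1.94 ± 0.62, adjusted p = 0.0363), Ndufa1 (1.93 ± 0.43, adjusted p = 0.00545), Cox8a (1.89 ± 0.33, adjusted p = 0.00112), Ndufa5 (1.84 ± 0.50, adjusted p = 0.0159), Atp5g1 (1.80 ± 0.45, adjusted p = 0.0113), Atp5g3 (1.17 ± 0.31, adjusted p = 0.0141) and Cox7b (1.16 ± 0.31, adjusted p = 0.0159). It was more negative for Cox6b2 (-2.26 ± 0.47, adjusted p = 0.00342) and Sdha (-1.11 ± 0.32, adjusted p = 0.0212). The value for Cox6a2 depends on the prior count of the fit, since iXEN held 1 and 0 UMIs of it. Atp5g1 stood at 2501 and 1742 CPM in XEN-iPS, 710 and 472 CPM in iXEN, 1736 and 1513 CPM in ES and 1576 ± 276 CPM in XEN (SD, n = 2), so that its iXEN libraries were below the other 6. The 4 groups came from several sequencing projects. With the project as a block, which leaves XEN-iPS replicate 1 alone for XEN-iPS because replicate 2 is the only library of its project, 35 members were higher and 3 lower in this contrast, against 27 and 2 without it, but Cox6a2 (5.06, adjusted p = 0.0622, edgeR) and Cox7a1 (1.69, adjusted p = 0.0801) lost their calls. Counting this block, the call was lost under 6 alternatives for Cox6a2 and under 9 for Cox7a1.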

How the results depend on the processing

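Counts of called members are given as higher or lower, with each alternative in place of the setting of the report. They are counts of members alone, and the share of all genes called changed with the setting too. When only the libraries of the compared groups entered the fit, ES against XEN had 33 lower, day 7 had 2 lower, day 14 had 3 lower, day 28 had 6 lower, XEN-iPS against XEN had 6 higher and 2 lower, 9h had 45 higher and 10 lower, 24h had 6 lower, 48h against ES had 4 higher, iXEN against ES had 4 higher, XEN-iPS against ES had 1 higher and 0 lower, iXEN against XEN had 1 higher and 24 lower, and the converted pair had 15 higher and 1 lower. In these fits all genes gave from 2.59% (XEN-iPS against ES) to 32.4% (ES against XEN) higher, and from 0.759% to 32.5% lower. Such fits estimate the spread from 4 or 8 libraries, and the cause was not tested. With DESeq2, day 28 had 8 lower, 24h had 4 lower, 48h against 24h had 5 lower, XEN-iPS against ES had 8 higher and the converted pair 41 higher. With RLE size factors, day 7 had 2 lower, day 28 had 5 lower, 48h against ES had 1 higher and XEN-iPS against ES 1 lower. With no filter on low counts, day 28 had 6 lower and 48h against ES 1 higher. With the removed clusters kept, day 28 had 7 lower, XEN-iPS against XEN 7 higher and 32 lower, 9h 1 higher and 0 lower, iXEN against ES 0 higher, XEN-iPS against ES 6 lower and iXEN against XEN 1 higher. With the sequencing project as a block, ES against XEN had 23 lower and day 28 had 7 lower. With the mitochondrial mRNAs left out of the totals, 6 nuclear members were lower at day 28 and 1 higher in iXEN against ES.

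For 24h and 48h the replicate number goes with the sequencing project, their correlation (0.32) was the highest, and the project block is given beside that comparison. Elsewhere the numbers only name the libraries: over all 45 pairs of conditions the deviations of same-numbered libraries correlated between -0.13 and 0.32, over 0.1 in 9 pairs and under -0.1 in 5. With the replicate as a block, day 7 had 2 lower, 24h 1 lower, XEN-iPS against ES 1 lower and iXEN against XEN 1 higher, and no other count moved by over 1.5 times.

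Among sums, 2 moved by over 1 SD of their libraries with the removed clusters kept. These were the mitochondrial one at day 7 (1.92% of UMIs) and the nuclear one in XEN-iPS (37010 CPM). As a share of UMIs without mitochondrial mRNA, the nuclear ones at day 28 (44390 CPM), in ES (34710 CPM) and at 9h (34300 CPM) moved too. So did the mitochondrial level of pluripotent-side cells (2.97% with limits of 0.3 and 0.7). Where duplicates lay close this limit was small, so the list follows their spread as well as the shift. Leaving out 1 of 2 libraries could not pass this limit. With 1 library left out, the counts ranged over 6 to 9 higher and 5 to 35 lower for ES against XEN, 17 to 28 and 1 to 8 at day 7, 10 to 13 and 1 to 11 at day 14, 14 to 21 and 0 to 11 at day 28, 5 to 11 and 1 to 35 for XEN-iPS against XEN, 0 and 0 at 9h, 0 to 3 and 0 to 2 at 24h, 0 to 1 and 6 to 12 at 48h against ES, 0 and 1 to 3 for 48h against 24h, 0 to 2 and 17 to 20 for iXEN against ES, 1 to 6 and 0 to 13 for XEN-iPS against ES, 1 to 2 and 11 to 38 for iXEN against XEN, and 10 to 30 and 1 to 5 for the converted pair. A lone library was assumed there to vary like the other groups. Of 144 calls of single named genes, 47 held under every alternative that was run and 97 were lost under at least 1. Calls of genes outside the naming rule were not followed one by one. One estimate changed sign, mt-Nd6 in XEN-iPS against XEN without XEN-iPS replicate 2 (-0.0509, adjusted p = 0.946, edgeR, against 2.20 without XEN-iPS replicate 1). Whether depth limited abundant members was not tested, and Cox8b, Cox8c and Cox6a2 were near the floor in many libraries. Technical duplicates leave the variation between cultures unmeasured.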

Other observations

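Cytochrome c (Cycs), which carries electrons from complex III to complex IV and is outside the naming rule, stood at 552 and 792 CPM in XEN and at 330 and 315 CPM in ES (log2 fold change -1.06 ± 0.35, adjusted p = 0.0188, edgeR). In the ES-to-iXEN conversion it stood at 286 and 282 CPM at 9h, 195 and 158 CPM at 24h, 85.3 and 86.9 CPM at 48h, and 202 and 266 CPM in iXEN. The 48h libraries were the lowest of all 20, and 48h was below ES (-1.91 ± 0.36, adjusted p = 0.000773), while iXEN against ES did not pass (-0.46 ± 0.35). Ssbp1, which binds single-stranded mitochondrial DNA, fell from 223 and 182 CPM in ES to 92.6 and 70.4 CPM at 48h (-1.31 ± 0.39) and 54.4 and 68.0 CPM in iXEN (-1.73 ± 0.39). Both genes were picked after their values were seen.

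Few kept cells had a high mitochondrial share. The share of cells with over 10% of UMIs in the 13 mRNAs was highest in 24h replicate 2 (5.62%, 187 cells) and day 14 replicate 2 (4.52%, 282 cells), against 0.912% in 24h replicate 1 and 1.44% in day 14 replicate 1, so it differed between duplicates. Those cells had few UMIs, with a median of 2528 in 24h replicate 2 and 1400 in day 14 replicate 2, beside 17220 and 14090 in the other cells of these libraries. No kept XEN-iPS cell was over 10%, of 3551 and 3093 cells, and at day 28 the shares were 1.65% and 2.07%. Before cells and clusters were left out, the XEN-iPS libraries held cells of up to 19.95% and 20%.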
